A study of Mus musculus with 2 samples.

Results

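The genes described here are 7 selenoproteins (Selenop, Selenof, Selenok, Selenom, Selenon, Selenot and Selenow), the selenophosphate synthetase Sephs2, itself a selenoprotein, and the selenocysteine insertion genes Secisbp2 and Pstk. They were picked by gene symbol, and each of the 10 stood on 1 of the 23466 rows of the deposited expression table. The study profiled mouse cells labelled primary microglia by bulk poly(A) RNA-seq. There was 1 library of cells given DMSO, the vehicle control, and 1 library of cells given 1600 μM iron together with 1 μM RSL3, a compound that inactivates the selenoprotein GPX4, to induce ferroptosis, an iron-dependent death by lipid peroxidation. The labels name no genotype, strain, age or time of exposure, and do not say how many animals or cultures stand behind a library. Iron and RSL3 came in the same culture, and what each contributed cannot be told apart.

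Selenoproteins carry selenocysteine, a cysteine analogue with selenium in place of sulphur that usually sits in the active site of a redox enzyme. The residue is encoded by UGA, which otherwise stops translation. Its tRNA is first charged with serine, PSTK then phosphorylates the serine, and SEPSECS exchanges the phosphate for selenium supplied as selenophosphate by SEPHS2. At the ribosome a hairpin in the untranslated end of the mRNA is bound by SECISBP2, which helps the dedicated elongation factor EEFSEC to deliver the charged tRNA. Because GPX4 is made this way, selenocysteine synthesis and insertion are needed for one of the main defences against ferroptosis.

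The feature shared by the 8 selenoprotein genes is an in-frame TGA within the coding region. All 8 carried it in GENCODE M21 on GRCm38, and the annotated sites were the only in-frame TGA codons of the transcripts used. The stretches below, from 7 of the 8 genes, run 5′ to 3′ along the coding strand and are shown because they hold the codon that defines the group, written in capitals as TGA. Selenop has 10 such codons and therefore takes 3 stretches.
Selenow: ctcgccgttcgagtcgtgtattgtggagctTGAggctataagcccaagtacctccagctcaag
Selenot: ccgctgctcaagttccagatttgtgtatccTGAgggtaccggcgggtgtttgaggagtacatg
Selenom: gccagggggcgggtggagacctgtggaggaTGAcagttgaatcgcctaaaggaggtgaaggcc
Selenof: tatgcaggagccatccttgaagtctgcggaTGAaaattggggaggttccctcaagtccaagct
Selenok: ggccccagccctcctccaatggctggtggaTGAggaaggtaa
Sephs2: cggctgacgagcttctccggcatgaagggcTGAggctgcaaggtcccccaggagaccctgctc
Selenop, first site: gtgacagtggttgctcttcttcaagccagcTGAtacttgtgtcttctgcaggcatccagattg
Selenop, next 2 sites: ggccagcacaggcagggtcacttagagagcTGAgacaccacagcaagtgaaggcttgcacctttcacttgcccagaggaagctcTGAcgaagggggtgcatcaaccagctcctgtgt
Selenop, last 7 sites: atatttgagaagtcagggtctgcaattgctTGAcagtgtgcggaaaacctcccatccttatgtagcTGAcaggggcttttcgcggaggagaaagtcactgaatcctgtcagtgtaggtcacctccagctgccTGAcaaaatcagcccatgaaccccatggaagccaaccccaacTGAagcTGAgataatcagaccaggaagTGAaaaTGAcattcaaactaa

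The place of the codon differs between these genes. It is codon 13 of 88 in Selenow, 49 of 195 in Selenot, 48 of 145 in Selenom and 63 of 452 in Sephs2. In Selenof it is codon 93 of 162 and in Selenon codon 428 of 557. In Selenok it is codon 92 of 94, so only 2 codons and the stop codon follow it. The 3 genes Selenow, Selenot and Selenom have a cysteine codon 3 codons before the TGA, the spacing of a thioredoxin-like redox pair, and in Selenof a cysteine codon stands 2 codons before it. In Selenop the first TGA, codon 59 of 380, has a cysteine codon 3 codons after it, and the other 9 lie between codons 259 and 377. On GRCm38 the TGA of Selenow is at chr7:15920464-15920466 on the minus strand, in exon 2 of 6. The TGA of Selenok is at chr14:29973440-29973442 on the plus strand, in exon 4 of 5.

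**Figure D1:**
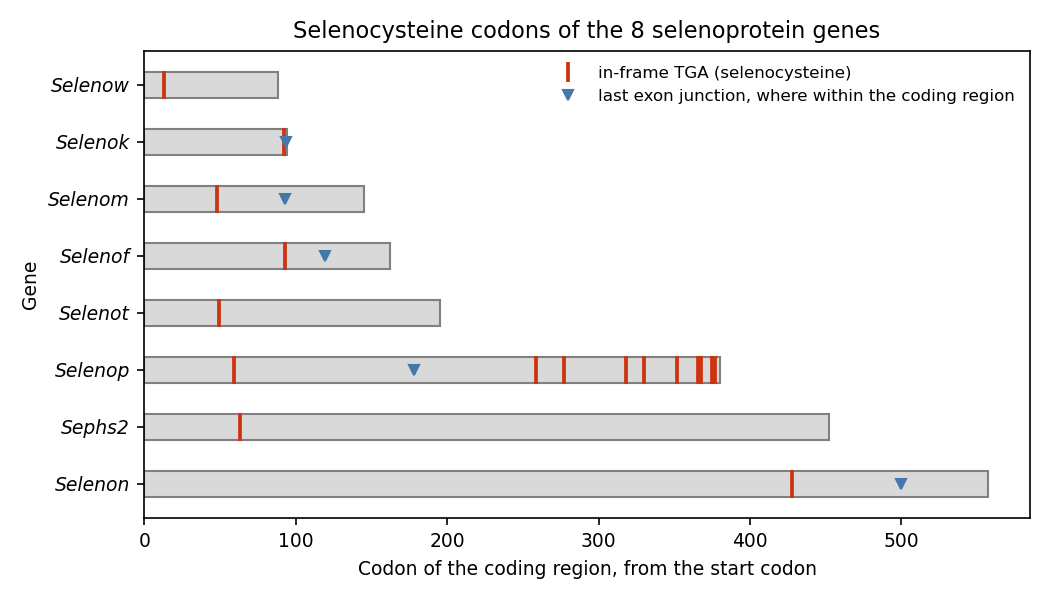
Coding region of each of the 8 selenoprotein genes (grey bars, length in codons), with in-frame TGA codons (red ticks) and the last exon junction where it lies within the coding region (blue triangles). Selenop has 10 TGA codons, 9 of them between codons 259 and 377 of 380, and Selenok has its codon at 92 of 94.

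Values are FPKM as deposited, that is fragments scaled by transcript length and library size, which allows levels to be set against each other between genes. With 1 library per condition no difference has an error or a p-value, and it describes these 2 libraries rather than the conditions. A log2 difference is log2(FPKM + 1) of the treated library less that of the control, a scale on which weak genes change less than their ratio. A gene counted as measured at 1 FPKM or more in either library. This held for 11771 genes, among them all 10 described here, and 2-fold on the same scale serves only as a size rule. The median log2 difference of all measured genes was -0.38, with quartiles of -0.73 and 0.01, so a gene with the same FPKM in both libraries stood above most others. The FPKM totals were 385141 with DMSO and 429250 in the treated library. Read counts were not used. Judging by steps among low values, a transcript of 1000 bases at 1 FPKM had roughly 16.5 fragments in the DMSO library and roughly 18.1 in the other.

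The label of the cells was checked against marker genes. Of 19 microglia and leukocyte markers, 11 were under 1 FPKM in both libraries, and Aif1, Cx3cr1, P2ry13, Sall1, Fcrls and Siglech were listed at 0 in both. The list summed to 70.0 FPKM with DMSO and 52.9 FPKM with iron plus RSL3, and Tmem119, which other cells also express, was at 59.1 and 26.1 FPKM. Without Tmem119 the other 18 summed to 10.9 FPKM with DMSO and 26.8 FPKM with iron plus RSL3, 2.45 times as high, led by the macrophage gene Cd68 at 3.36 and 10.4 FPKM. Of the 8 that were measured, 7 had a log2 difference above 0, beside 25.7% of all measured genes. The median of the 8 was 0.72. Trem2, C1qa and C1qc reached 1 FPKM only in the treated library, so the filter itself favoured increases in this count and median. All 15 fibroblast and mural markers reached 10 FPKM in both libraries, with sums of 11416 and 11415 FPKM, led by Bgn at 2403 and 2593 FPKM and Fn1 at 1500.1 and 1433 FPKM. The sums were 34.5 and 41.5 FPKM for 7 astrocyte markers, 23.7 and 17.4 FPKM for 7 of the oligodendrocyte lineage and 22.9 and 18.1 FPKM for 7 of neurons, and mostly came from Gja1, Cspg4 and Tubb3. In a bulk sample fewer cells of a type and less RNA per cell cannot be told apart, and the part of the cell mixture in the values below was not tested.

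Among the 10 genes Pstk was at least 2-fold lower with iron plus RSL3, 1 of 10, and none was at least 2-fold higher. Over all measured genes 1384, or 11.8%, were at least 2-fold lower and 500, or 4.25%, at least 2-fold higher, so 1 of 10 lower is close to the background. After centring, a rescaling by the median ratio of genes at 10 FPKM or more in both libraries, these counts became 803 and 685. The median log2 difference of the 10 genes was -0.10. The 8 selenoproteins among them lay between -0.34 and 0.59, with a median of 0.04, and all 8 lay above the median of all genes. The insertion genes Secisbp2 and Pstk lay below it, at -0.65 and -1.58. All 8 selenoproteins reached 10 FPKM in both libraries, unlike Secisbp2 and Pstk. Over the 4818 genes at that level the median ratio of treated to control was 0.86, above the ratios of Selenop (0.78) and Selenon (0.79). Summed over the 10 genes, the level was 848 FPKM with DMSO and 896 FPKM with iron plus RSL3.

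Selenow, a small cytosolic protein of the thioredoxin-like Rdx family, was the most abundant, at 316 FPKM with DMSO and 357 FPKM with iron plus RSL3. Selenof, which resides in the endoplasmic reticulum bound to the folding sensor UGGT, followed at 240.1 and 261 FPKM. These levels placed Selenow at rank 176 and Selenof at rank 230 of all measured genes in the control library, and at ranks 199 and 261 in the treated one. In both libraries they stood well above the other 8 genes, the highest of which was Selenot at 66.5 FPKM with DMSO and Selenok at 68.5 FPKM with iron plus RSL3. Their log2 differences were small, 0.17 for Selenow and 0.12 for Selenof, and that of Selenof became -0.03 with equal totals, that is with the treated values rescaled to the FPKM total of the control. Without replicates it cannot be said which neighbours in the order of levels differ beyond the spread between cultures.

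**Figure D2:**
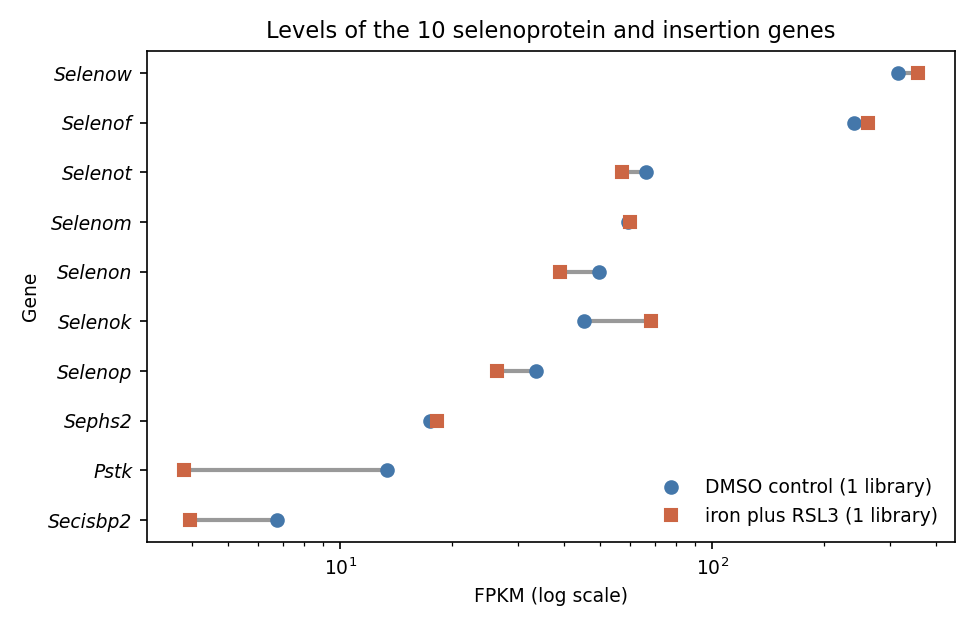
FPKM of the 10 genes (log axis) in the DMSO control library (blue circles) and the library given iron plus RSL3 (orange squares), 1 library each, joined by a grey line. Pstk shows the widest gap, from 13.3 to 3.80 FPKM, and Selenok is the only one of the 10 at least 1.5-fold higher in the treated library on the log2(FPKM + 1) scale.

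Selenok, a small membrane protein of the endoplasmic reticulum known for its part in protein palmitoylation and in calcium flux of immune cells, had the largest increase of the 10. Its level was 45.1 FPKM with DMSO and 68.5 FPKM with iron plus RSL3, 1.52 times as high. The log2 difference of 0.59 was higher than that of 91.8% of measured genes and lay between 0.44 and 0.81 under the alternatives tried. At 1.5-fold, a size it passed as deposited but not with equal totals over all genes (0.44) or without mitochondrial and top genes (0.53), 8.28% of all genes were higher. Counting error was smaller than this difference as far as fragments could be estimated from the steps. The estimates were 1247 and 2077 on its longest annotated transcript, with an exact 95% interval of the ratio from 1.42 to 1.63. On its shortest transcript the interval ran from 1.34 to 1.73. These intervals leave out variation between cultures. Selenok has 6 annotated pseudogenes, and Selenot has 1, to which reads of these genes could be assigned.

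The other endoplasmic reticulum selenoproteins did not share that size of change. Selenom, a thioredoxin-like protein, was at 59.4 and 60.2 FPKM, a log2 difference of 0.02 that turned to -0.13 with equal totals. Selenot, a membrane protein of the Rdx family, was at 66.5 FPKM with DMSO and 57.1 FPKM with iron plus RSL3, a log2 difference of -0.22 that became 0.00092 after centring. Selenon, a glycoprotein that regulates calcium handling and whose human gene is mutated in congenital myopathies, was at 49.7 and 39.0 FPKM, a log2 difference of -0.34. Selenos, which belongs to the same compartment and takes part in degradation of misfolded proteins but is not among the 10 genes, was at 42.3 and 44.9 FPKM. Over the 6 genes of this compartment (Selenof, Selenok, Selenom, Selenon, Selenos and Selenot) the median log2 difference was 0.05, which was -0.10 with equal totals, and none passed 2-fold.

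Selenop, the secreted selenium carrier of plasma made mainly by liver, was at 33.6 FPKM with DMSO and 26.3 FPKM with iron plus RSL3, a log2 difference of -0.34. That is the same change as Selenon to 2 decimals, and 52.7% of measured genes had a lower one. Selenop overlaps the opposite-strand gene Ccdc152 by 439 bases. No step that marks strand is described in the protocols, so reads there are ambiguous, but Ccdc152 stood at only 0.18 and 0.12 FPKM. Among the genes of selenium uptake and recycling, Lrp8, the receptor that takes up selenoprotein P in brain and testis, was at 10.3 and 12.5 FPKM. Lrp1, a broad endocytic receptor, was at 131 and 107 FPKM. Scly, the lyase that frees selenium from selenocysteine for reuse, was at 4.45 FPKM with DMSO and 1.88 FPKM with iron plus RSL3, a log2 difference of -0.92 that passed 2-fold with equal totals (-1.02). Of the 7 genes of that list 3 were measured, with a median of -0.30, none past 2-fold and 2 listed at 0 in both libraries.

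Sephs2, the selenium-dependent enzyme that makes selenophosphate, was at 17.4 and 18.2 FPKM, a log2 difference of 0.06 that was -0.09 with equal totals. It is encoded by a single exon on chr7:127271879-127274055, and 792 bases of it overlap a transcribed locus on the other strand. Its paralogue Sephs1, which lacks selenocysteine, was at 10.6 FPKM with DMSO and 3.52 FPKM with iron plus RSL3, 3.02 times lower. Sephs2 lay above and Sephs1 below the median of all genes.

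Secisbp2, the protein that binds the selenocysteine hairpin, was the weakest of the 10 in the control, at 6.77 FPKM, and was at 3.94 FPKM with iron plus RSL3, a log2 difference of -0.65. Since 29.98% of measured genes had a lower change and 34.7% were at least 1.5-fold lower, this value was common in the table. Its paralogue Secisbp2l was at 15.4 and 8.71 FPKM, a log2 difference of -0.76. The estimated fragments of Secisbp2 were 372 and 237 on its longest transcript and 62 and 40 on its shortest. The exact 95% interval of the ratio was 0.49 to 0.69 on the former and 0.39 to 0.89 on the latter, counting error only.

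Pstk, the kinase that phosphorylates serine on the selenocysteine tRNA (chr7:131371141-131394482, plus strand), was at 13.3 FPKM with DMSO and 3.80 FPKM with iron plus RSL3, 3.51 times lower. It was the second weakest of the 10 with DMSO and the weakest in the treated library. The log2 difference of -1.58 was lower than that of nearly all genes, with 1.20% of measured genes below it, and it stayed past 2-fold under each alternative, between -1.78 and -1.40. Estimated fragments were 1164 and 363 on the longest transcript, with an exact 95% interval of the ratio from 0.25 to 0.32, and 85 and 27 on the shortest, with an interval from 0.18 to 0.45. Exons of Pstk share 4652 bases with exons of the opposite-strand gene Ikzf5, and reads of the pair cannot be told apart without strand. Ikzf5 was at 6.76 and 4.41 FPKM, a log2 difference of -0.52, and its part in the Pstk value was not tested.

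The enzyme after PSTK in the same pathway was lower as well. Sepsecs, which makes selenocysteyl-tRNA from the phosphorylated intermediate, was at 3.59 FPKM with DMSO and 0.70 FPKM with iron plus RSL3. That is 5.15 times lower in FPKM and a log2 difference of -1.44, or -2.21 with a pseudocount of 0.1 FPKM. Eefsec, the elongation factor, was at 7.82 and 4.14 FPKM, a log2 difference of -0.78, and Trnau1ap, a protein associated with the selenocysteine tRNA, at 18.8 and 11.5 FPKM (-0.66). Alkbh8, which methylates the wobble base of that tRNA among others, was at 4.38 and 1.66 FPKM, 2.63 times lower and with a log2 difference of -1.02 that was -0.87 after centring. Sars, which charges serine onto all serine tRNAs, was at 114 and 140.3 FPKM, and the ribosomal protein gene Rpl30, whose product also binds the hairpin, at 155 and 191 FPKM.

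Of the 13 other genes of synthesis and insertion, 3 were at least 2-fold lower (Sephs1, Sepsecs and Alkbh8), none was at least 2-fold higher, and the median log2 difference was -0.62, beside 11.8% lower and 4.25% higher over all measured genes. Sars, Rpl30 and the nucleolin gene Ncl were the 3 above 0. Other general RNA factors of the list were below 0, with Eif4a3 at -0.62, Celf1 at -0.44, Trit1 at -0.19 and Elavl1 at -0.17. Grouped after their values had been seen, the 8 genes Pstk, Sepsecs, Sephs1, Sephs2, Secisbp2, Secisbp2l, Eefsec and Trnau1ap had 7 members below the median of all genes. Sephs2, the only selenoprotein of the 8, was the exception. These 8 genes summed to 93.8 FPKM with DMSO and 54.5 FPKM with iron plus RSL3. They are weaker than most selenoprotein genes, and the all-gene median was -0.38, so the count describes these genes and is not set against others of like level.

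**Figure D3:**
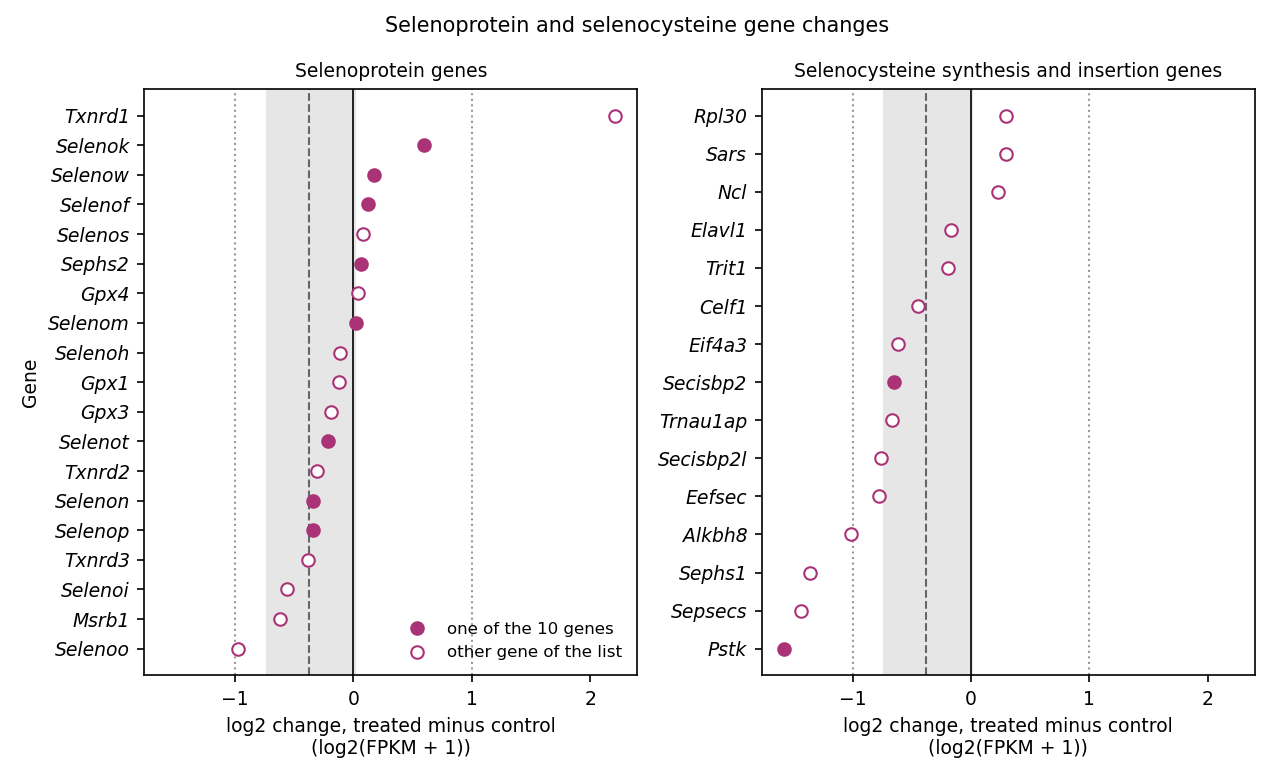
Log2 difference (treated minus control, log2(FPKM + 1)) of the 19 measured selenoprotein genes (left) and of 15 selenocysteine synthesis and insertion genes (right). Filled points are among the 10 genes described and open points are the others of each list, with the median of all genes (dashed line), their quartiles (grey band) and 2-fold (dotted lines). Txnrd1 is the only selenoprotein past 2-fold on this scale, at 2.21, and Pstk is the lowest of the insertion genes, at -1.58.

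Among all 24 mouse selenoprotein genes, 19 were measured, 1 was at least 2-fold higher and none was at least 2-fold lower. Over all measured genes 4.25% were at least 2-fold higher and 11.8% lower, so 1 of 19 higher is close to the background. Txnrd1, the cytosolic thioredoxin reductase, was the one past 2-fold, at 88.5 and 413 FPKM. The 16 genes outside the 10 had 11 measured, with a median log2 difference of -0.19, against -0.38 for all genes. Gpx1, a cytosolic glutathione peroxidase, was at 231 and 212 FPKM, and Gpx4, the target of RSL3, at 146 and 149.97 FPKM, a log2 difference of 0.04 that was -0.11 with equal totals. The 24 genes summed to 1484 FPKM with DMSO and 1826 FPKM with iron plus RSL3. Without Txnrd1 the sums were 1395 and 1413 FPKM, a ratio of 1.01. Selenoo, a mitochondrial protein that adds AMP to other proteins and was singled out after its values had been seen, had the lowest change. Its level was 8.28 FPKM with DMSO and 3.73 FPKM with iron plus RSL3, 2.22 times lower. The log2 difference of -0.97 fell just short of 2-fold and passed it with equal totals (-1.09).

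The TGA codon could be read as a premature stop by nonsense-mediated decay where it lies more than about 50 bases before the last exon junction, a textbook rule that makes some selenoprotein mRNAs sensitive to selenium supply. Of the 19 measured selenoprotein genes, 11 had their first TGA farther than 50 bases before that junction, among them Selenop, Selenof, Selenom, Selenon, Selenot and Selenow. In Selenok the distance was 5 bases, and Sephs2 has no junction. The 11 genes had a median log2 difference of -0.13, between -0.34 and 0.17, and 4 of them were above 0. The other 8 had a median of -0.16, between -0.97 and 2.21, and 4 of them were above 0. The medians differed little beside the range within each group, and no test was made, since the genes share both libraries.

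Partners of the endoplasmic reticulum selenoproteins were compared with them. Of 14 listed, 13 were measured, 1 was at least 2-fold lower and none at least 2-fold higher, with a median log2 difference of -0.29. With 11.8% of all genes at least 2-fold lower and 4.25% higher, 1 of 13 is no more than the background. The one past 2-fold was Zdhhc6, the palmitoyltransferase that works together with selenoprotein K. It was at 17.7 FPKM with DMSO and 5.78 FPKM with iron plus RSL3, 3.06 times lower, while Selenok itself was 1.52 times as high. Uggt1, the glycoprotein folding sensor that binds SELENOF, was at 19.95 and 15.2 FPKM. The most abundant partners were the chaperone gene Hspa5, at 309 and 561 FPKM, a log2 difference of 0.86 that passed 2-fold after centring (1.08), and Vcp, the ATPase of protein extraction, at 180 and 184 FPKM, a log2 difference of 0.03 that was -0.12 with equal totals.

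Promoters were searched on both strands for 5 short motifs of stress-responsive factors, over 250 bases before to 50 bases after each RefSeq start on GRCm38.p6. All 10 genes matched the RefSeq table, with 12 starts in all. The core of the antioxidant response element, TGACNNNGC, was found in 1 of these 12 promoters, that of Selenok (window chr14:29968130-29968429, plus strand), and in 12.4% of all 32851 promoters. It was also found in 1 of 33 promoters of the other selenoprotein and insertion genes, that of Txnrd1 (window chr10:82858956-82859255, plus strand), on the opposite strand. Neither share was above that of all promoters. Both matches are shown with 30 bases on either side because they were the only ones to this core among these promoters, with the match in capitals.
Selenok, 44 bases before the start: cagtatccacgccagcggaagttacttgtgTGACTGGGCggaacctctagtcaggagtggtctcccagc
Txnrd1, 92 bases before the start: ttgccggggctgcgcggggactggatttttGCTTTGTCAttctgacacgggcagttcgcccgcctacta
The palindrome TGACGTCA of cAMP-responsive factors was in none of the 12, in 1 of the 33 promoters of the other genes, that of Dio2 (under 1 FPKM in both libraries), and in 1.79% of all promoters. The endoplasmic reticulum stress element (CCAAT and CCACG with 9 bases between them, in 0.119% of all promoters) and its second form (ATTGG and CCACG with 1 base between them, in 0.0365%) were in none of the 12 either. The heat shock element (GAA, TTC and GAA with 2 bases between neighbours, in 0.603%) was also in none. A match or its absence describes letters in this window and says nothing of binding.

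Directions close to 0 depended on how the libraries were scaled. Of the 10 genes 5 had a log2 difference above 0 as deposited, as did 25.7% of all measured genes. The count was 6 after centring and 2 with equal totals. The count above the median of all genes was 8 under each of these scalings. A scaling multiplies all treated values by the same factor and moves that median along with the genes, so this count could hardly change. It was 5 where the median was taken over all rows above 0 FPKM in either library, among them many near 0.

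**Figure D4:**
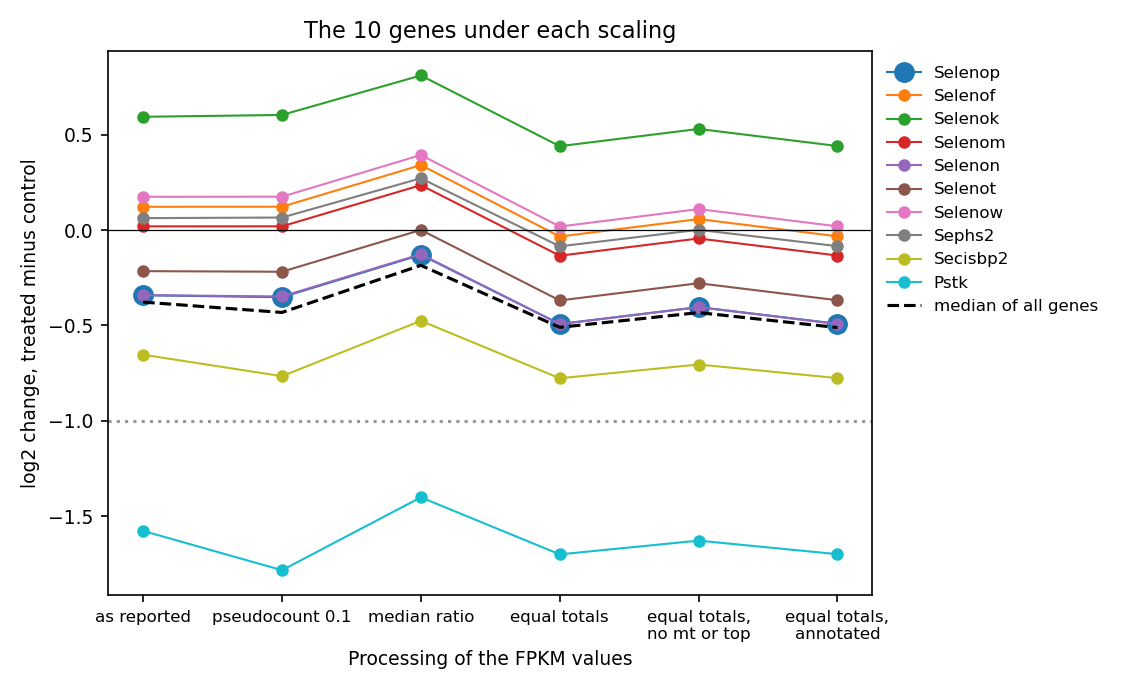
Log2 difference (treated minus control) of the 10 genes under each scaling or pseudocount tried, with the median of all genes (dashed black line) and the 2-fold limit (dotted line). Selenop and Selenon overlie each other, Pstk stays below -1 in every column, and Selenof, Selenom, Selenot and Sephs2 change sign with the scaling.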

How the data were processed

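Total RNA of cells labelled primary microglia was made into 2 poly(A) libraries, per the labels' protocols. The authors deposited FPKM for 23466 rows, 1 column per library, matched to the samples through their library names. Per the submitters' processing notes, the tools included HISAT2, StringTie, DESeq2 and edgeR and the build was GRCm38. Versions, annotation and filters: not given in the sources used here.

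Changes were computed as log2(FPKM + 1), treated minus control, over genes at 1 FPKM or more in either library, with Python 3.11.15, pandas 2.3.3 and SciPy 1.17.1. No test was possible with 1 library per group. Fragments were estimated from the step at which FPKM times length clusters for genes with 1 transcript (60.6 and 55.4). Only 36.6% and 41.0% of low values lay within 0.05 of a whole step, against 10% if evenly spread, so the fragments are rough estimates. The exact intervals treat these estimates as binomial counts. They are therefore approximate and cover counting error only. Gene positions, exons and TGA sites came from GENCODE M21 (GRCm38) and promoters from RefSeq. The calculation was tested on simulated libraries. Genes named were the 10 genes, and from each list of selenium genes and partners those past 2-fold, the 2 most abundant and 7 taken for their role, beside others named as paralogues or partners (Secisbp2l, Ncl, Trnau1ap, Selenos, Uggt1) or picked with their values in view. The genes, lists and motifs were chosen with earlier results of these data known. Cell type marker lists are given by sums and leading genes. One gene was left out of the microglia list, and one sequence is not shown.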

Additional observations from a re-analysis of the deposited data

How the results depend on the processing

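No paired analysis was possible because each condition had 1 library, and for the same reason none was left out. Of 70 values of the 10 genes under alternatives, 62 kept their direction and their side of 2-fold and 8 changed sign. Changing the filter on level leaves a gene's own value as it was. The values under those settings were therefore among the 62 in advance. With equal totals, Selenof went to -0.034, Selenom to -0.134, Sephs2 to -0.085, Gpx4 to -0.115 and Vcp to -0.122. Over annotated genes alone these were -0.033, -0.133, -0.084, -0.114 and -0.121. Without mitochondrial and top genes, Selenom was at -0.044, Gpx4 at -0.024 and Vcp at -0.031. Selenos went to -0.069 with equal totals and -0.068 over annotated genes. After centring, Selenot was at 0.00092, Gpx1 at 0.092.

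The median of the 10 genes was 0.118 after centring, -0.251 with equal totals and -0.2504 over annotated genes. In the same order, the median of all genes was -0.185, -0.5097 and -0.511, that of the other selenoproteins 0.058, -0.345 and -0.344, and that of the other synthesis and insertion genes -0.401, -0.769 and -0.768. The last was -0.444 at 5 FPKM or more, and the all-gene median -0.196 with no filter. The median of uptake and recycling genes was 0.248 with no filter and 0.187 after centring. That of the endoplasmic reticulum selenoproteins was -0.102 with equal totals, -0.101 over annotated genes and -0.012 without mitochondrial and top genes.

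At 1.5-fold, 3 of the 10 genes passed, Selenok higher and Secisbp2 and Pstk lower. Of all measured genes 5064 passed, 975 (8.28%) higher and 4089 (34.7%) lower. With a pseudocount of 0.1 FPKM, 3034 genes passed 2-fold, 2379 of them lower, and after centring 803 were lower. For levels of a few FPKM the estimated fragments depended on the transcript taken. On the longest they were 311 and 66 for Sepsecs, 554 and 230 for Alkbh8 and 169 and 78 for Scly (DMSO, then treated). On the shortest they were 45 and 9, 27 and 11, and 22 and 10 in the same order, few enough to be imprecise.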
